A study of Homo sapiens with 4 samples.

Results

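Epithelial and mesenchymal marker genes were described in 2 established human liver tumour cell lines, Huh7 and HepG2. The 10 genes were given as a list of names and were found by their NCBI gene numbers among the 46427 genes of the deposited tables. They were the keratin genes KRT8, KRT18, KRT7, KRT23 and KRT80, the vimentin gene VIM, the cadherin genes CDH1 and CDH2, and the transcription factor genes SNAI2 and ZEB1. The study asked what silencing of COP1, which encodes a ubiquitin ligase, does to gene expression in liver cancer cells. Both lines, labelled as hepatocellular carcinoma, were transfected for 5 h with 20 nM siRNA, either a negative control (NC-siRNA, genotype given as WT) or one directed at COP1 (COP1-siRNA, genotype given as COP1 Knockdown), and were collected after 48 h. Each of the 4 groups is a single library of polyadenylated RNA from 1 labelled batch, so no difference could be set against a spread between replicates and no p-value was computed. Transfection was the only treatment, and all 4 groups received an siRNA, so untransfected cells were not measured here.

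Keratins are the intermediate filament proteins of epithelial cells. Each keratin filament pairs a type II keratin with a type I keratin, and hepatocytes are known for a simple pair of K8 and K18, whereas bile duct cells also make K7 and K19. In the epithelial to mesenchymal transition, cells lose E-cadherin, the product of CDH1, and gain vimentin and N-cadherin, the product of CDH2. SNAI2 and ZEB1 encode zinc finger repressors that bind the E-box of the CDH1 promoter. Cultured liver tumour lines commonly express genes of both kinds, and N-cadherin is also a normal adhesion protein of hepatocytes.

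COP1, the targeted gene, was at 19.7 TPM (a level scaled for gene length and for the total of the library) in the Huh7 control and at 6.18 TPM after silencing, which left 31.4% of the control level. HepG2 went from 26.9 to 16.1 TPM, with 59.9% left. Depth, read as coverage divided by FPKM, lay between 5.75 and 7.47 over the 4 libraries and was 1.13 times as high with COP1-siRNA as with NC-siRNA in Huh7 cells and 1.27 times as high in HepG2 cells. Read counts are not in the tables used here, so the counting error of a value is unknown. Both lines carried the defining hepatocyte genes, with albumin (ALB) at 8117 and 1509 TPM in the Huh7 and HepG2 controls. The pan-leukocyte gene PTPRC, the T cell gene CD3E, the endothelial gene TEK and the fibroblast gene DCN were listed at 0 in all 4 libraries. Other genes of the same lists were above 0, among them LUM at 121 TPM, CD68 at 58.2 TPM and PECAM1 at 5.08 TPM in Huh7 with NC-siRNA. The sums of the full lists are given further below.

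Of the 10 marker genes, 8 reached 1 TPM in at least 1 library, and KRT7 and KRT80 did not. In Huh7 cells with NC-siRNA the order of levels was KRT8, KRT18, VIM, CDH2, KRT23, CDH1 and ZEB1, with SNAI2, KRT7 and KRT80 listed at 0. In HepG2 cells with NC-siRNA VIM was highest, followed by KRT8, KRT18, CDH2, KRT23, SNAI2, ZEB1 and CDH1. The neighbours SNAI2 and ZEB1 differed by less than 0.1 TPM in that library, at 8.85 and 8.80 TPM. This closeness depended on whether TPM or coverage was used. On coverage, the mean number of reads over a base of the gene, they were at 22.1 and 2.16. With 1 library per group no pair of neighbours can be said to differ beyond a spread.

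**Figure D1:**
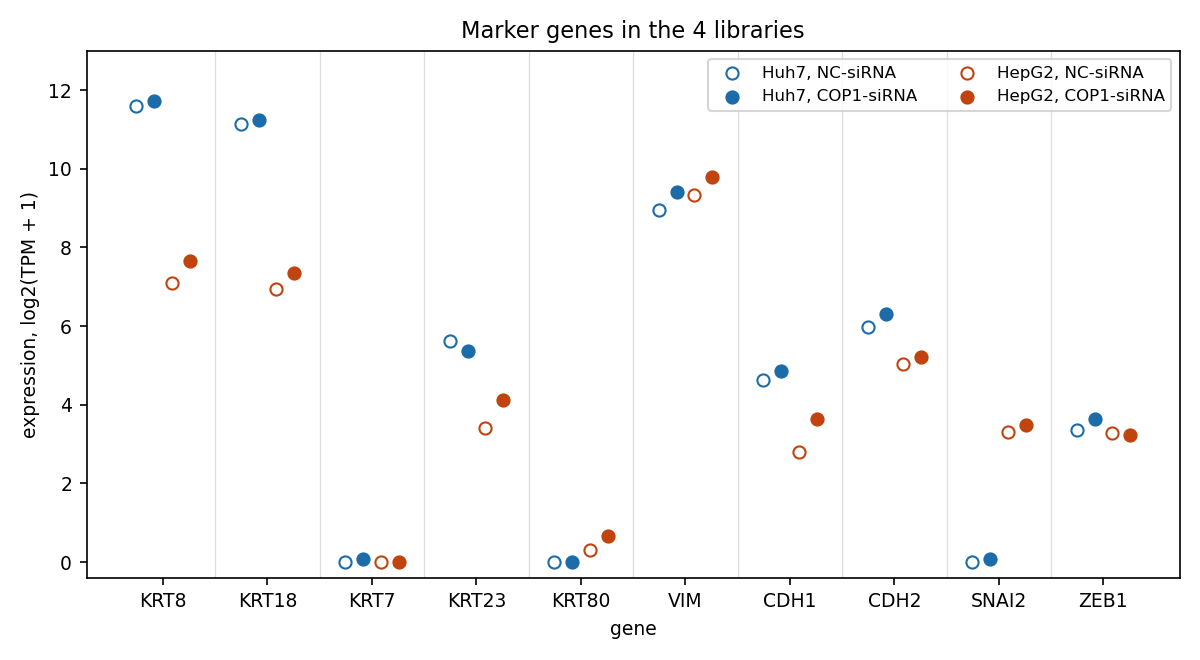
Level of each marker gene as log2(TPM + 1) on the vertical axis in each of the 4 libraries, with blue points for Huh7, orange points for HepG2, open points for NC-siRNA and filled points for COP1-siRNA. KRT8 and KRT18 are far higher in both Huh7 libraries than in both HepG2 libraries, VIM is high in all 4, and SNAI2 is near 0 in Huh7 and between 8.85 and 10.1 TPM in HepG2.

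KRT8 (chr12:52897191-52949860, minus strand, GRCh38 as in all positions given here) encodes the type II keratin of simple epithelia. Its level was 3088 TPM in Huh7 cells with NC-siRNA, 3384 TPM in Huh7 cells with COP1-siRNA, 136 TPM in HepG2 cells with NC-siRNA and 202 TPM in HepG2 cells with COP1-siRNA. Both Huh7 libraries lay above both HepG2 libraries, and within each line the COP1-siRNA library was the higher. Between the lines KRT8 was 22.6-fold higher in Huh7 with NC-siRNA and 16.7-fold higher with COP1-siRNA. With COP1-siRNA the plain ratio to the control was 1.10 in Huh7 and 1.48 in HepG2. Changes are given from here on as log2((TPM + 1)/(TPM + 1)), which understates the change of low genes, and on that scale they were 0.13 and 0.56.

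KRT18 (chr12:52948871-52952906, plus strand) encodes the type I partner of K8. Its 4 levels were 2234 and 2433 TPM in Huh7 with NC-siRNA and COP1-siRNA, and 123 and 163 TPM in HepG2. The pattern was that of KRT8, with Huh7 18.2-fold higher among the controls and 15.0-fold higher among the COP1-siRNA libraries. The change with COP1-siRNA was 0.12 in Huh7 and 0.40 in HepG2. KRT8 and KRT18 thus kept a near-equal ratio of TPM within a library, at 1.38 and 1.39 in Huh7 and 1.11 and 1.24 in HepG2 with NC-siRNA and COP1-siRNA, although the sum of both genes differed widely between the lines. On coverage the ratios were 1.16 and 1.17 in Huh7 and 0.939 and 1.04 in HepG2. In the HepG2 control the order of KRT8 and KRT18 thus depended on whether TPM or coverage was used.

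This pair made up most of the keratin RNA. Of 55 protein-coding keratin genes, 6 were at 1 TPM or more in each Huh7 library, 5 in HepG2 with NC-siRNA and 7 in HepG2 with COP1-siRNA. All keratin genes together held 5598 and 6091 TPM in Huh7 with NC-siRNA and COP1-siRNA, and 338 and 475 TPM in HepG2. KRT8 and KRT18 held 95.1% and 95.5% of this in Huh7 but 76.7% and 76.8% in HepG2. The remainder was mostly KRT19, the type I keratin of bile duct cells, which was at 200 and 207 TPM in Huh7 and at 53.2 and 76.1 TPM in HepG2. Relative to KRT18, KRT19 was therefore higher in HepG2, with ratios of 0.434 and 0.468 against 0.0894 and 0.0851 in Huh7.

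KRT23 (chr17:40922696-40937646, minus strand), a type I keratin gene, was at 48.5 and 40.1 TPM in Huh7 with NC-siRNA and COP1-siRNA, and at 9.69 and 16.4 TPM in HepG2. It was the only marker gene at 1 TPM or more that was lower with COP1-siRNA in Huh7 (−0.27) and higher in HepG2 (0.70). The difference between the lines was 5.00-fold among the controls and 2.44-fold among the COP1-siRNA libraries, with Huh7 higher in both. KRT7 (chr12:52233243-52252667, plus strand), a type II keratin gene of ducts, was listed at 0 in 3 libraries and at 0.0551 TPM in Huh7 with COP1-siRNA. KRT80 (chr12:52168996-52192014, minus strand), a type II keratin gene, was listed at 0 in both Huh7 libraries and was at 0.234 and 0.572 TPM in HepG2 with NC-siRNA and COP1-siRNA. KRT7 and KRT80 were below the level at which a change was computed.

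VIM (chr10:17228241-17237593, plus strand) encodes vimentin, the intermediate filament protein of mesenchymal cells. Its level was 496 and 677 TPM in Huh7 with NC-siRNA and COP1-siRNA, and 645 and 878 TPM in HepG2. VIM was thus abundant in all 4 libraries, and the COP1-siRNA library was 1.36 times as high as its control in each line (0.45 and 0.44 on the log2 scale). HepG2 was 1.30-fold higher than Huh7 with either siRNA, a log2 difference of −0.38 for Huh7 against HepG2 among the controls. The median of all genes tested between the same libraries was −0.37, so VIM lay at the middle of the genes, and median-of-ratios scaling brought its difference to −0.03. The ratio of VIM to KRT18 lay on opposite sides of 1 in the lines, at 0.222 and 0.278 in Huh7 and 5.25 and 5.40 in HepG2 with NC-siRNA and COP1-siRNA.

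CDH1 (chr16:68737292-68835537, plus strand) encodes E-cadherin, which joins epithelial cells. It was at 23.7 and 28.3 TPM in Huh7 with NC-siRNA and COP1-siRNA, and at 5.92 and 11.5 TPM in HepG2. Both Huh7 libraries were higher, by 4.003-fold among the controls and 2.45-fold among the COP1-siRNA libraries. CDH1 had the largest change of the tested marker genes with COP1-siRNA in HepG2, 0.86 on the log2 scale or a plain ratio of 1.95, against 0.24 in Huh7.

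CDH2 (chr18:27932878-28177130, minus strand), which encodes N-cadherin, was at 62.2 and 77.6 TPM in Huh7 and at 31.6 and 36.2 TPM in HepG2 with NC-siRNA and COP1-siRNA. CDH2 was thus higher than CDH1 in every library. The ratio of CDH2 to CDH1 was 2.62 and 2.75 in Huh7, and 5.34 with NC-siRNA and 3.14 with COP1-siRNA in HepG2. This order depended on whether TPM or coverage was used. On coverage, the mean number of reads over a base of the gene, the ratios were 0.685 and 0.714 in Huh7. In HepG2 they were 1.40 and 0.819. The gene's coverage was low for its FPKM to the same extent in all 4 libraries, at 0.26 of the usual ratio, and the cause was not tested. The log2 change of CDH2 with COP1-siRNA was 0.31 in Huh7 and 0.19 in HepG2. With coverage scaled for depth in place of TPM, the change in Huh7 was 0.29.

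**Figure D2:**
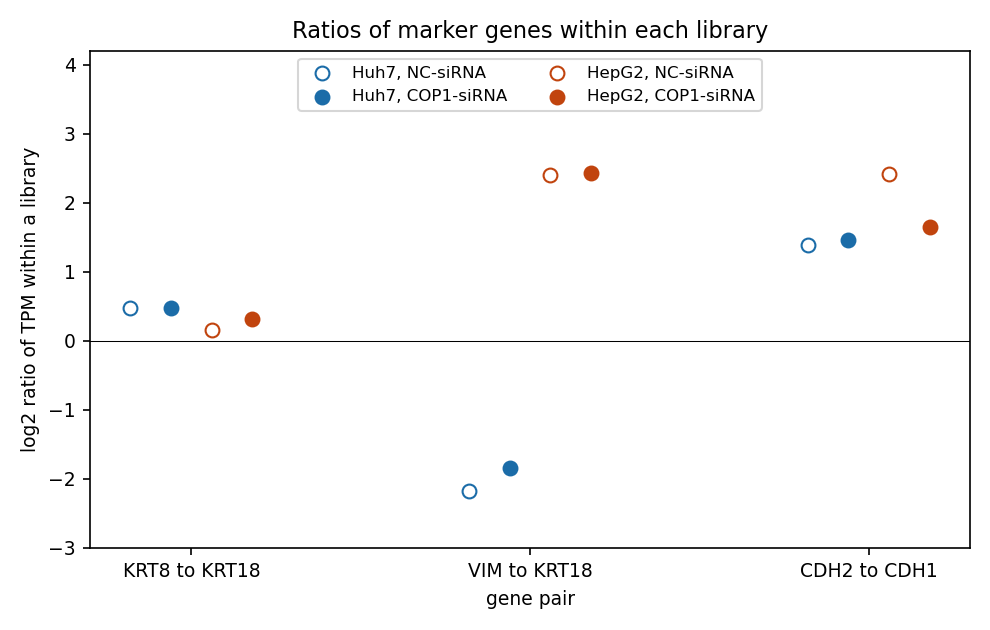
Ratio of the TPM of a pair of marker genes within each library, on a log2 vertical axis, with blue points for Huh7, orange points for HepG2, open points for NC-siRNA and filled points for COP1-siRNA. KRT8 to KRT18 stays between 1.11 and 1.39, VIM to KRT18 is below 1 in Huh7 and above 5 in HepG2, and CDH2 to CDH1 is highest in HepG2 with NC-siRNA.

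SNAI2 (chr8:48917598-48921429, minus strand) encodes Slug. It was listed at 0 in Huh7 with NC-siRNA and at 0.0586 TPM in Huh7 with COP1-siRNA, and was at 8.85 and 10.1 TPM in HepG2. Slug RNA was therefore at or near 0 in the Huh7 tables and present in both HepG2 libraries, and no fold is given against a library listed at 0. The change with COP1-siRNA in HepG2 was 0.18.

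ZEB1 (chr10:31318417-31529804, plus strand) was at 9.26 and 11.5 TPM in Huh7 and at 8.80 and 8.37 TPM in HepG2 with NC-siRNA and COP1-siRNA. Its level was similar in the control libraries, with a log2 difference of 0.07 that became −0.02 when FPKM was used. The change with COP1-siRNA was 0.29 in Huh7 and −0.06 in HepG2. Coverage of ZEB1 was low for its FPKM in all 4 libraries, at 0.0984 to 0.0985 of the usual ratio. Levels of ZEB1 set against other genes therefore depended on whether TPM or coverage was used. The antisense gene ZEB1-AS1, which overlaps ZEB1 by 2031 bases, was at 1.21 and 1.59 TPM in Huh7 and at 3.28 and 4.003 TPM in HepG2.

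The promoters of VIM and ZEB1 are shown because the E-box is the sequence through which Slug and ZEB1 act, and because VIM was the most abundant marker of HepG2. RefSeq windows of GRCh38.p14, from 250 bases before to 50 bases after a start, were found for 4 of the 10 genes, with 1 for KRT8, 1 for VIM, 2 for CDH2 and 7 for ZEB1. The motifs were searched on both strands. The E-box CACCTG was in 20.6% of all 35116 windows and in 2 of the 11 marker windows, both of ZEB1. Their 2 starts are called first and second here, without counting ZEB1 starts whose window held no E-box. The 30 bases around an E-box before each of these starts, read on the plus strand with the E-box in capitals as its reverse complement, lie at chr10:31318348-31318377 and chr10:31319119-31319148.
ZEB1, first start: ccgaggtgacagCAGGTGagggccgggtgc
ZEB1, second start: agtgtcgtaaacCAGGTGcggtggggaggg
Counted from its start, the first E-box began at −57 and the second at −85. The second window held 2 further E-boxes, at −242 and 33, and the one shown is the nearer of those before the start. The 250 bases before the VIM start, chr10:17227991-17228240 on the plus strand, held no E-box, no AP-1 motif TGANTCA and no TATA box TATAAA. They held a GC box GGGCGG, shown in capitals, at −46.
VIM, before the start: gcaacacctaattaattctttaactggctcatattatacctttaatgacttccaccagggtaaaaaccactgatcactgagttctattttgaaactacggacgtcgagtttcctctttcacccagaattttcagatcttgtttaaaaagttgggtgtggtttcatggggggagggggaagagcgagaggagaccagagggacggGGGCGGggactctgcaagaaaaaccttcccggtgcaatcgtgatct
Over all windows the GC box was in 45.0%, the AP-1 motif in 7.71% and the TATA box in 11.5%, against 7, 1 and 1 of the 11 marker windows. Most of the marker windows with a GC box were of ZEB1, so they do not stand for separate genes. The AP-1 motif and the TATA box were in the second CDH2 window. These matches are a description of the sequence, and binding was not measured.

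The first comparison was COP1-siRNA against NC-siRNA within each line, with a gene tested at 1 TPM or more in at least 1 of the 2 libraries. None of the 7 marker genes tested in Huh7 was changed 2-fold or more, where 0.638% of all 13000 tested genes were 2-fold higher and 0.446% were 2-fold lower. None of the 8 tested in HepG2 was, where 0.540% of 14456 genes were 2-fold higher and 0.394% lower. At 1.5-fold the count stayed at 0 in Huh7, against 2.80% of genes higher and 2.68% lower, and was 2 higher and 0 lower in HepG2, against 2.56% higher and 1.87% lower. The 2 were KRT23 and CDH1. The tested marker genes were above 0 in 6 of 7 cases in Huh7, with a median log2 change of 0.24, and in 7 of 8 cases in HepG2, with a median of 0.42. Over all tested genes 49.9% were above 0 in Huh7 and 48.3% in HepG2, and the medians were within 0.01 of 0. Genes of the epithelial and of the mesenchymal kind lay on the same side of 0 in both lines, apart from KRT23 in Huh7 and ZEB1 in HepG2.

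In HepG2 a larger change than that of CDH1 was seen in 1.51% of all tested genes, of either direction. The share was 2.67% for KRT23, 4.86% for KRT8, 8.76% for VIM and 10.9% for KRT18. In Huh7 VIM had the largest change of the marker genes, and 10.9% of tested genes changed more. The changes of KRT8 and KRT18 in Huh7 were exceeded by 54.2% and 57.0% of tested genes.

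**Figure D3:**
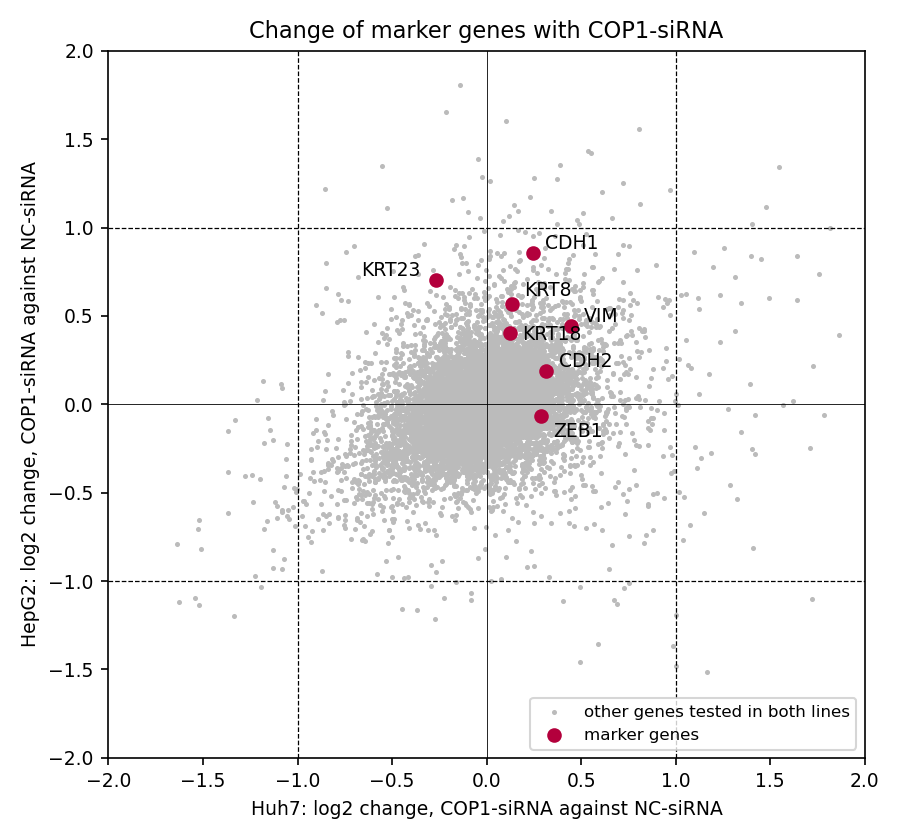
Log2 change with COP1-siRNA in Huh7 (horizontal axis) and HepG2 (vertical axis) on the log2(TPM + 1) scale, with grey points for the 11970 genes tested in both lines, of which 7 fall outside the plotted range, red points for the marker genes and dashed lines at 2-fold. All 7 marker genes tested in both lines lie inside the 2-fold lines, CDH1, KRT8 and KRT23 are farther from 0 in HepG2, and VIM is equally far in both.

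Hepatocyte genes were higher with COP1-siRNA in HepG2, as were the tested marker genes of both kinds other than ZEB1. All 10 of 10 listed hepatocyte genes were higher with COP1-siRNA there, by 0.08 (ALB) to 1.05 (the fibrinogen gene FGB) on the log2 scale, with a median of 0.39, and their summed level was 2676 TPM in the control and 3088 TPM after silencing. FGB, at 6.97 and 15.5 TPM, was the single one past 2-fold. In Huh7, 2 of 10 were higher and 8 lower, with a median of −0.09 and sums of 20346 and 18218 TPM. Depth was also higher in the COP1-siRNA library of HepG2, by the 1.27-fold given above. The part of these differences in the values of the marker genes was not tested. Of the other cell types, the 6 bile duct genes, KRT19 included, summed to 640 and 634 TPM in HepG2 and 261 and 254 TPM in Huh7 with NC-siRNA and COP1-siRNA. The 7 fibroblast or stellate cell genes summed to 13.9 and 18.3 TPM in HepG2 and to 122 and 122 TPM in Huh7, of which LUM alone was 121 and 121 TPM in Huh7. The 5 endothelial genes summed to at most 7.36 TPM in any library, and the 5 leukocyte genes to between 17.0 and 62.7 TPM, mostly CD68.

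**Figure D4:**
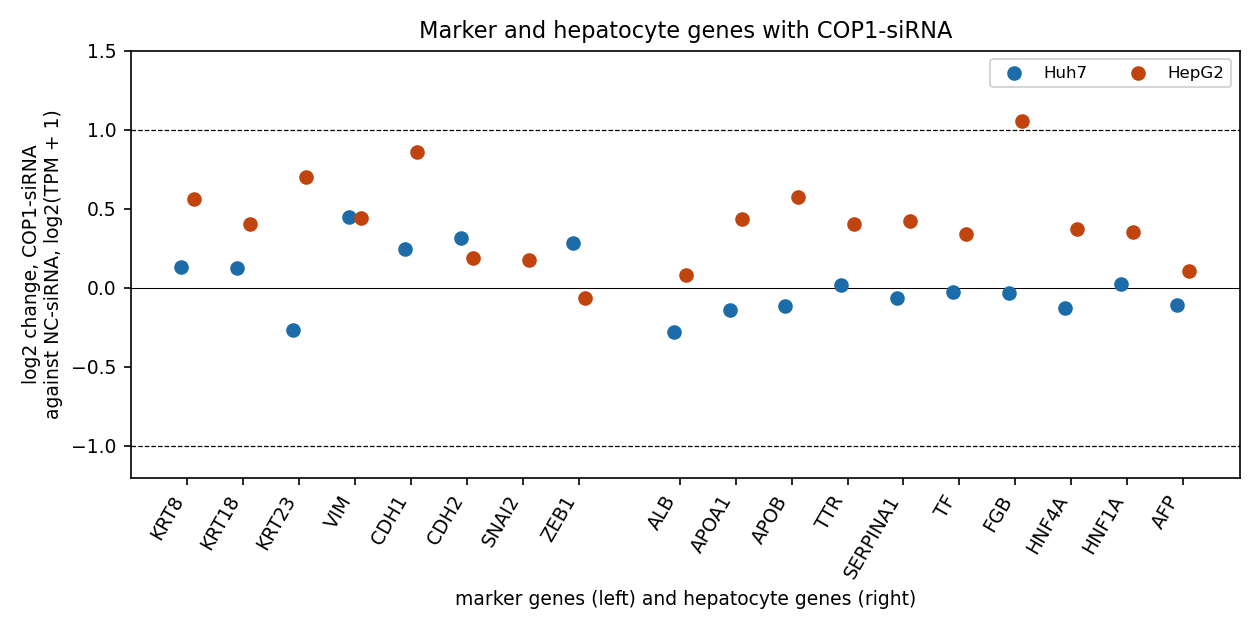
Log2 change with COP1-siRNA on the log2(TPM + 1) scale (vertical axis) of the marker genes tested and of 10 hepatocyte genes (horizontal axis), with blue points for Huh7, orange points for HepG2 and dashed lines at 2-fold. All 10 hepatocyte genes are above 0 in HepG2, and 8 of 10 are below 0 in Huh7.

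Genes that work with the markers were read from further lists. On the log2(TPM + 1) scale none of these genes was past 2-fold with COP1-siRNA in either line outside the hepatocyte list. On plain TPM some low genes were, among them KRT17 in Huh7 (1.64 and 3.77 TPM) and ELF3 in HepG2 (0.662 and 1.64 TPM). Among 30 other keratins, 3 were tested in each line, with medians of 0.05 in Huh7 and 0.12 in HepG2. The change of KRT19 in HepG2 was 0.51, between those of KRT8 and KRT18. Of the 13 other intermediate filament and lamin genes, 3 were above and 2 below 0 in Huh7 (median 0.10), and 7 were above and 1 below 0 in HepG2 (median 0.15). Among 16 genes of keratin linkers and desmosomes, the junctions to which keratins attach, 4 were above and 6 below 0 in Huh7, and 2 were above and 8 below 0 in HepG2, with a median of −0.03 in each line. The 25 genes of the epithelial programme gave 8 above and 6 below 0 in Huh7 (median 0.05), and 12 above and 5 below 0 in HepG2 (median 0.23). The 25 genes of the mesenchymal programme gave 8 and 5 in Huh7 (median 0.01), and 9 and 3 in HepG2 (median 0.16). The order of these HepG2 medians was not stable: they were 0.14 for the epithelial and 0.34 for the mesenchymal programme at a minimum of 5 TPM, and 0.06 for each with no minimum. Of the 12 other transcription factors of the transition, 1 was above and 3 below 0 in Huh7 (median −0.12), and 2 were above and 7 below 0 in HepG2 (median −0.01). Of 11 other cadherins and catenins, which tie cadherins to actin, 1 was above and 3 below 0 in Huh7 (median −0.05), and 1 was above and 2 below 0 in HepG2 (median −0.04). The catenin gene CTNNB1 was at 371 and 358 TPM in Huh7 and at 318 and 308 TPM in HepG2. CTNNA1 was at 196 and 188 TPM in Huh7 and at 87.0 and 90.5 TPM in HepG2, and so was 2-fold higher in Huh7. CTNND1, which encodes the catenin p120, was at 104 and 82.0 TPM in Huh7 with NC-siRNA and COP1-siRNA.

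The second comparison was Huh7 against HepG2, made once with NC-siRNA and once with COP1-siRNA in separate libraries. With NC-siRNA 4 of the 8 tested marker genes were 2-fold or more higher in Huh7, against 14.7% of 15055 tested genes, and 1 was 2-fold lower, against 27.9%. The 4 were KRT8, KRT18, KRT23 and CDH1, and the 1 was SNAI2. With COP1-siRNA 5 of 8 were higher, against 14.0% of 15126 genes, and 1 was lower, against 26.0%. The added gene was CDH2, whose log2 difference was 0.95 with NC-siRNA and 1.08 with COP1-siRNA. It passed 2-fold with NC-siRNA too once the libraries were scaled by median-of-ratios (1.29) or upper quartile (1.04). The median over the tested marker genes was 1.39 with NC-siRNA and 1.15 with COP1-siRNA, and those of all tested genes were −0.37 and −0.35. Of the genes past 2-fold over all genes, 34.6% were higher in Huh7 with NC-siRNA, and 48.1% after median-of-ratios scaling, which brought the median to −0.06. With COP1-siRNA the shares were 35.0% and 48.7%.

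Hepatocyte genes also differed between the lines. With NC-siRNA 8 of 10 were 2-fold or more higher in Huh7 and 0 were 2-fold lower, with a median of 2.76, and their part in the keratin and CDH1 differences was not tested. In the epithelial programme as many genes were 2-fold higher as lower in Huh7, 5 and 5 among 17 tested with NC-siRNA, where 14.7% of all tested genes were higher and 27.9% lower. ELF3, an epithelial transcription factor gene, was at 33.4 and 40.9 TPM in Huh7 and at 0.662 and 1.64 TPM in HepG2. MAL2, an apical transport gene, was at 129 and 123 TPM against 9.75 and 12.6 TPM. In the other direction, the protease inhibitor gene SPINT2 was at 0.0889 and 0.0388 TPM in Huh7 against 50.5 and 37.8 TPM in HepG2. LSR, a gene of tricellular junctions, was at 5.19 and 6.12 TPM against 56.1 and 64.9 TPM.

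In the mesenchymal programme 10 genes were 2-fold higher and 3 lower in Huh7 among 15 tested with NC-siRNA, with a median of 2.59. Of all tested genes 14.7% were 2-fold higher and 27.9% lower. The 3 lower genes, with Huh7 against HepG2 controls, were ACTA2 (0 against 11.1 TPM), SPARC (1.22 against 14.9 TPM) and COL1A1 (0.0509 against 2.33 TPM). The collagen gene COL5A2 was at 141 and 125 TPM in Huh7 and at 0.454 and 0.364 TPM in HepG2. The tropomyosin gene TPM2 was at 467 and 479 TPM against 5.10 and 4.09 TPM, and the hyaluronan receptor gene CD44 at 54.8 and 72.0 TPM against 0.0961 and 0.128 TPM. These genes were thus near 0 or low in HepG2. NNMT, which encodes a nicotinamide methyltransferase, was at 30.5 and 40.4 TPM in Huh7 and listed at 0 in HepG2. The line with the higher keratins and E-cadherin was thus also the line with more of the mesenchymal effector genes past 2-fold.

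The transcription factors of the transition went the other way. Among 9 tested with NC-siRNA 6 were 2-fold lower in Huh7 and 1 higher, with a median of −2.18. Of all tested genes 27.9% were 2-fold lower and 14.7% higher. TWIST1 was listed at 0 in both Huh7 libraries and was at 14.2 and 10.6 TPM in HepG2, and TWIST2 was listed at 0 against 6.18 and 5.92 TPM. ZEB2, the paralogue of ZEB1, was at 0.209 and 0.560 TPM in Huh7 against 5.53 TPM and 5.52 TPM in HepG2. SNAI1, which encodes Snail and is the single factor past 2-fold in the other direction, was at 11.6 and 10.8 TPM in Huh7 and at 1.66 and 2.51 TPM in HepG2. SNAI1 and SNAI2, of the same family, thus had opposite orders in the lines.

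**Figure D5:**
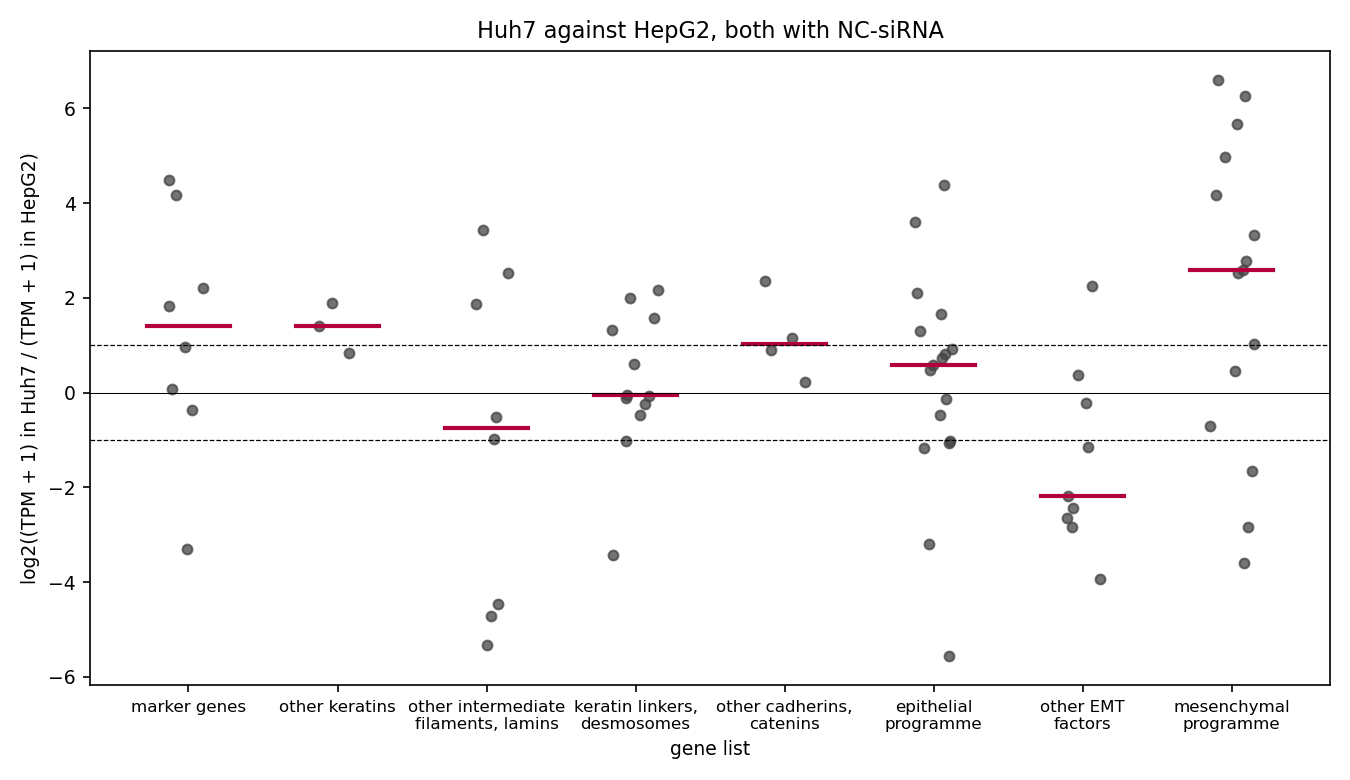
Log2 difference between Huh7 and HepG2 with NC-siRNA on the log2(TPM + 1) scale (vertical axis, above 0 is higher in Huh7) for the tested genes of each list (horizontal axis), with a point for each gene, a red line at the list's median and dashed lines at 2-fold. The medians are 1.39 for the marker genes, 2.59 for the mesenchymal programme and −2.18 for the other factors of the epithelial to mesenchymal transition (EMT factors).

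Among 30 other keratins, 3 were tested with NC-siRNA, and KRT19 and KRT17 were 2-fold higher in Huh7. KRT17 was low with NC-siRNA, at 1.64 TPM in Huh7 and listed at 0 in HepG2. Other intermediate filament genes also separated the lines. The neurofilament genes INA, NEFL and NEFM were listed at 0 in both Huh7 libraries, and in HepG2 their levels lay between 21.1 TPM (NEFM) and 42.6 TPM (INA). Nestin (NES) was at 35.9 and 44.4 TPM in Huh7 against 2.40 and 3.22 TPM in HepG2. Of 13 genes of this list 8 were tested with NC-siRNA, 3 were 2-fold higher and 3 lower in Huh7. Among keratin linkers and desmosomes 4 of 12 tested genes were higher and 2 lower, and of the 4 other cadherins and catenins tested 2 were higher. Beside the counts of these lists, 14.7% of all tested genes were 2-fold higher in Huh7 with NC-siRNA and 27.9% lower. The desmosomal cadherin gene DSC3 differed most within the desmosome list, at 0.0867 and 0.0671 TPM in Huh7 against 10.7 and 10.6 TPM in HepG2.

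Likeness of pattern was measured over the 4 libraries as the largest difference between centred log2(TPM + 1) values, among 76 listed genes. ELF3 was nearest to KRT8 (0.12), KRT8 to KRT18 (0.20), KRT19 to KRT23 (0.19) and to CDH1 (0.24), LMNB2 to VIM (0.18), GRHL1 to CDH2 (0.11), LSR to SNAI2 (0.13) and DSC2 to ZEB1 (0.098). The added 1 TPM understates differences of low genes. ELF3 was at 0.662 TPM in the HepG2 control, and SNAI2 was listed at 0 in the Huh7 control, where LSR was at 5.19 TPM. The nearness of these genes therefore applies to that scale and not to plain TPM. The 4 points come from only 2 lines, and the measure is a description.

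Reads of KRT8 and KRT18 can be divided among near copies. The ends of KRT8 and KRT18 overlap by 990 bases on opposite strands, and the libraries kept the strand, but how the reads were counted there is not given in the sources used here. Of 50 listed KRT8 pseudogenes, 28 were above 0 in at least 1 library, and together they reached 15.4 and 14.9 TPM in Huh7 and 3.46 and 3.85 TPM in HepG2, at most 2.53% of KRT8. KRT8P3, whose sequence is 97.1% identical to the KRT8 coding sequence over 1449 aligned positions, was at 10.7 and 9.30 TPM in Huh7 and at 0.353 and 0.471 TPM in HepG2. As for KRT8, both Huh7 libraries were above both HepG2 libraries, but within Huh7 KRT8P3 was lower with COP1-siRNA. The 66 listed KRT18 pseudogenes together reached at most 0.571% of KRT18. Summed with their pseudogenes, KRT8 and KRT18 differed between the control libraries by 4.46 and 4.17 on the log2 scale, against 4.49 and 4.17 without them.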

How the data were processed

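RNA of Huh7 and HepG2 cells with NC-siRNA or COP1-siRNA was sequenced from stranded poly(A) libraries, with 1 library per group and groups taken from the labels. The submitters' processing notes list FastQC 0.11.7, Trimmomatic 0.38, HISAT2 2.1.0, StringTie 2.1.3b, edgeR and the build GRCh38, and the annotation release is not given in the sources used here. For each gene the authors deposited a TPM, an FPKM and a coverage. TPM sums to the same total in each library, so a large gain in a few genes lowers the rest. The tables give NCBI gene numbers, and 44698 of 46427 were found in RefSeq. Values of gene numbers on more than 1 line (49 to 51 per library) were summed.

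Changes were log2((TPM + 1)/(TPM + 1)) for genes at 1 TPM or more in at least 1 of the 2 libraries, described with a 2-fold threshold. No test was run. The members and lists were chosen with earlier results of these data known. All 10 marker genes and COP1 were named, with up to 4 genes per list and comparison with the largest change past 2-fold, and genes sharing a dimer, complex or reads with a marker gene or nearest to it in pattern. Of the genes this rule names, 1 is not reported here. The genes SNAI1, ALB, LUM, CD68, PECAM1, ACTA2, SPARC, COL1A1 and the cell type genes at 0 were named after their values were seen. Alternatives were a pseudocount of 0.1, FPKM, coverage scaled for depth, median-of-ratios and upper-quartile scaling, no minimum TPM, a minimum of 5 TPM, a 1.5-fold threshold, repeated gene numbers kept apart, pseudogenes or antisense genes added, and protein-coding genes only. The plain TPM ratio was added after the data were seen. Identity of KRT8 pseudogenes was computed from GENCODE transcripts with Biopython 1.88. The scripts were tested on simulated data. Python 3.11.15, numpy 2.4.6, pandas 2.3.3 and matplotlib 3.10.9 were used. Protein identity between the markers was not analysed here.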

Additional observations from a re-analysis of the deposited data

Results flagged for a closer look

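KRT23 and ZEB1 were noted because their change with COP1-siRNA had opposite signs in the lines. For KRT23 the change in HepG2 minus that in Huh7 was 0.97 on the log2 scale, and for ZEB1 it was −0.35. With 1 library per group, neither difference was tested.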

How the results depend on the processing

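No paired analysis was possible because each group has only replicate 1, and a fit over both lines with the line as a term was not run. At 1.5-fold in place of 2-fold, 2 marker genes were past the threshold in HepG2 with COP1-siRNA, and the counts of marker genes past the threshold in the other comparisons stayed within 1.5 times those reported. Of 290 values of marker genes under the alternatives, 288 kept their side of 2-fold, 2 passed it (CDH2 between the controls, under the scalings given above) and 1 changed sign (ZEB1 between the controls, with FPKM). Of 288 list medians, 74 moved by more than 0.1. Counts over all genes with COP1-siRNA depended on the setting, and the cause was not tested: 83 higher and 58 lower in Huh7 became 249 and 141 with a pseudocount of 0.1, 257 and 154 with the plain ratio, 33 and 24 with FPKM, 34 and 42 at a minimum of 5 TPM, and 28 and 45 among protein-coding genes. In HepG2, 78 and 57 became 227 and 145, 254 and 153, 21 and 18, 29 and 26, and 33 and 19. The unknown read number limits the low values of KRT7, KRT80 and, in Huh7, SNAI2.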
